A study of Mus musculus with 8 samples.

Results

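The genes described here are 9 members of the PARP family and Dtx3l, 10 genes in all out of the 49315 genes counted. They were chosen by name, as Parp1, Parp2, Parp3, Parp8, Parp9, Parp10, Parp11, Parp12, Parp14 and Dtx3l, and each name matched a single Ensembl gene in GENCODE M21 on mouse build GRCm38. RNA-Seq was performed on bone marrow-derived macrophages (BMDMs), primary macrophages grown from C57BL/6 mouse marrow in 10 ng/ml of macrophage colony-stimulating factor. The cells were transfected by Lipofectamine with 25 nM of gapmeR, an antisense oligonucleotide by which RNase H is led to cut the matching RNA. A total of 4 libraries came from negative control gapmeR (replicates 2, 5, 6 and 7), and 4 came from gapmeR against MAARS (replicates 9, 11, 13 and 15), a macrophage long noncoding RNA. The label of the latter reads MAARS gapmeRs and does not say whether a single sequence was used. No library was from untransfected cells, and no separate group with another MAARS gapmeR or other stimulus is among the 8 samples. The oligonucleotide itself and the loss of its target therefore cannot be told apart here.

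PARP proteins take ADP-ribose from NAD+ and attach it to proteins or nucleic acids, either as a single unit or as long chains. PARP1 and PARP2 make chains at DNA breaks and help to recruit repair factors, whereas many of the other family members add single units and are transcribed under interferon control. DTX3L is a ubiquitin ligase of the Deltex family that forms a complex with PARP9, and this complex has been tied to antiviral responses. On this background Parp9, Dtx3l, Parp10, Parp11, Parp12 and Parp14 are called the interferon-type members below, and their counts are compared with those of Parp1 and Parp2. The grouping was made with earlier results of these data known.

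Library totals lay between 19287279 and 20567123 counts in the control gapmeR group and from 20839671 to 24541205 with MAARS gapmeR, so that every MAARS gapmeR library was the deeper. Values are CPM, counts scaled to a common library size, after TMM normalization, with factors from 0.955 to 1.03. The knockdown was seen in every library: MAARS (Gm14461) had 238, 296, 240 and 249 counts with control gapmeR (replicates 2, 5, 6 and 7) but 163, 161, 159 and 135 counts with MAARS gapmeR (replicates 9, 11, 13 and 15), and its CPM fell from 13.1 ± 1.36 to 6.82 ± 0.844 (SD of 4 libraries a group). All 7 macrophage markers examined (Adgre1, Cd68, Csf1r, Itgam, Lyz2, Fcgr1 and Mertk) were expressed, with a summed level of 13759 to 16990.5 CPM in control libraries and 16853 to 20083 CPM in MAARS gapmeR libraries. Most of this sum was Lyz2, and the markers did not move together: 4 were higher, 2 lower and 1 did not pass 0.05 by edgeR, with Fcgr1 at a log2 fold change of -2.09 and Cd68 at -0.34. The sum of 6 lymphocyte markers stayed between 0.0946 and 0.54 CPM, and 5 dendritic cell markers summed to between 1.08 and 2.49 CPM. The 6 neutrophil and progenitor markers summed to 53.2 to 149 CPM in control and 55.7 to 89.2 CPM in MAARS gapmeR libraries, and the 5 fibroblast markers, led by Col1a1 and Col1a2, to 440.4 to 1010.1 and 694.4 to 1199.6 CPM. The part of these other cells in the results below was not tested. The libraries are bulk RNA, in which fewer cells of a type and less RNA per cell cannot be told apart.

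All 6 interferon-type members were lower after MAARS knockdown, by 1.93-fold (Parp9) to 2.77-fold (Parp14). Parp1 was 17.9% higher and Parp2 14.7% lower. Of the 10 genes, 8 were called lower and 2 higher, at an adjusted p under 0.05 by edgeR's quasi-likelihood test, and in each of them the 4 libraries of one group lay entirely on one side of the 4 libraries of the other. Calls were common in this comparison: 24.0% of the 13051 genes tested were lower, 21.3% were higher and 45.4% were called in either direction, and the groups did not overlap in 22.8% of genes (lower) and 19.3% (higher). The median log2 fold change was -1.30 over the 6 interferon-type members and 0.01 over all genes tested. In the order of log2 fold changes from the lowest, Parp14 was at place 230 and Parp9 at place 443 of 13051, and the other 4 interferon-type members lay between them. All 10 genes passed the filter on low counts, with 285 to 14398 counts per library.

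**Figure D1:**
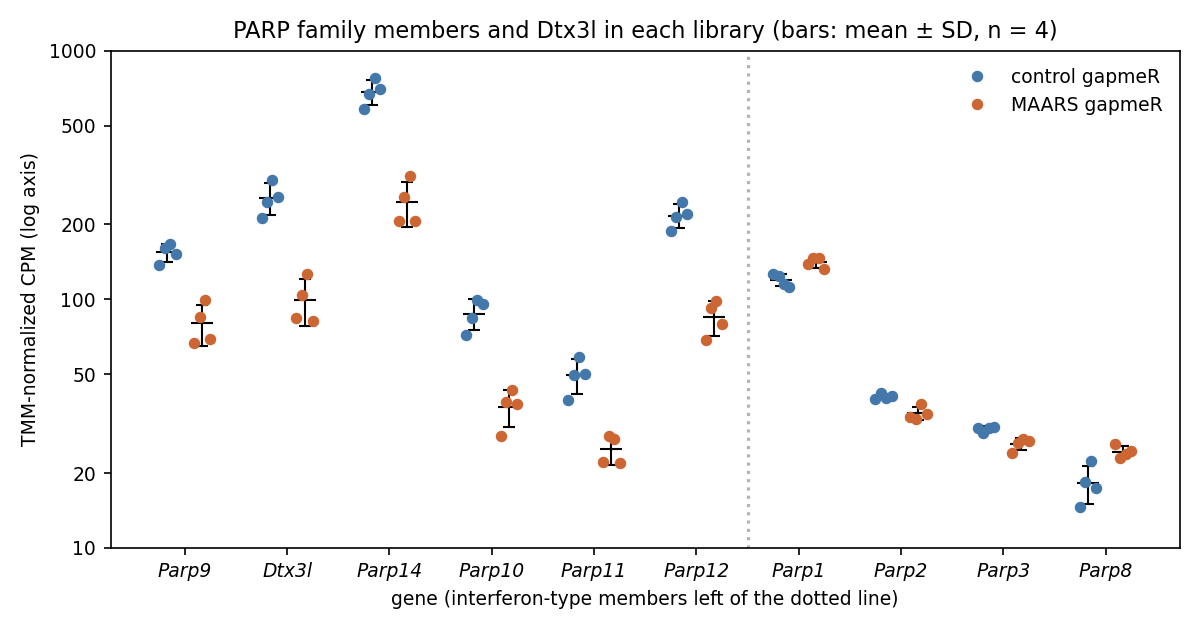
TMM-normalized CPM on a log axis for the 10 genes, with 1 point per library, and the mean and SD of each group of 4 as bars. The MAARS gapmeR points of the 6 interferon-type members lie below all control points (Parp14, 206 to 313 against 585 to 779 CPM), while those of Parp1 and Parp8 lie above them.

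Parp14 encodes a large macrodomain protein that adds single ADP-ribose units and is known as a cofactor of STAT6. The gene (ENSMUSG00000034422) lies on the minus strand of chromosome 16 from 35832874 to 35871544. It had the highest CPM of the 10 genes, not divided by length, with 585, 668, 779 and 701 CPM in the control libraries (replicates 2, 5, 6 and 7, in that order) and 207, 259, 313 and 206 CPM in the MAARS gapmeR libraries (replicates 9, 11, 13 and 15). The highest MAARS gapmeR library, replicate 13, remained well under the lowest control library, replicate 2. The means were 683 ± 80.3 and 247 ± 51.0 CPM (± SD, 4 libraries a group), a log2 fold change of -1.47 ± 0.131 (SE; edgeR adjusted p = 9.71e-06).

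Dtx3l (ENSMUSG00000049502, chromosome 16 from 35926511 to 35939151, minus strand) encodes the ubiquitin ligase. Its level was 213, 247, 303 and 258 CPM in the control libraries and 84.0, 104, 127 and 81.6 CPM in the MAARS gapmeR libraries, in the same order of replicates. As with Parp14, replicate 2 was the lowest and replicate 6 the highest control library, and replicate 13 was the highest with MAARS gapmeR. The mean fell from 255 ± 37.2 to 99.1 ± 21.1 CPM (± SD, 4 libraries a group), and the log2 fold change was -1.36 ± 0.14 (SE; edgeR adjusted p = 2.11e-05).

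Parp9 (ENSMUSG00000022906, chromosome 16 from 35938470 to 35972605, plus strand) encodes the macrodomain partner of DTX3L. It had 137, 161, 167 and 152 CPM in the control libraries and 66.7, 85.1, 99.3 and 69.3 CPM in the MAARS gapmeR libraries. The groups did not overlap, and the change was the smallest of the 6: the mean went from 154 ± 13.2 to 80.1 ± 15.2 CPM (± SD, 4 libraries a group), with a log2 fold change of -0.95 ± 0.114 (SE; edgeR adjusted p = 6.55e-05).

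Parp9 and Dtx3l start head to head, and their annotated bodies share 682 bases. The exons overlap as well, over 9.4% of the exonic bases of Parp9 and 8% of those of Dtx3l, and as the strand setting of the counting is not given in the sources used here, reads from this stretch cannot be assigned with certainty. The RefSeq promoter window of Dtx3l, 250 bases before to 50 after its RefSeq start at 35939027, is shown because it covers the start region of both genes: 4 of the 7 annotated Parp9 transcript starts fall in it. The GENCODE start of Dtx3l, at 35939151, differs from the RefSeq start and also lies in this window. The window of Parp11 is shown as the only member window that held the longest of the motifs searched. Both are from GRCm38.p6, at chr16:35938978-35939277 on the minus strand and chr6:127446590-127446889 on the plus strand, printed 5′ to 3′ with motif matches in capitals.
Dtx3l: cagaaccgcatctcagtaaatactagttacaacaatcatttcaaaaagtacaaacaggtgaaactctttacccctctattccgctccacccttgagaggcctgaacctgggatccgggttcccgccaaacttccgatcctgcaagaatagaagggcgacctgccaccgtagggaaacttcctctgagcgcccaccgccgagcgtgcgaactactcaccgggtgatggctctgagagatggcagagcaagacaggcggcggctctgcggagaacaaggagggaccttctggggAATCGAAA
Parp11: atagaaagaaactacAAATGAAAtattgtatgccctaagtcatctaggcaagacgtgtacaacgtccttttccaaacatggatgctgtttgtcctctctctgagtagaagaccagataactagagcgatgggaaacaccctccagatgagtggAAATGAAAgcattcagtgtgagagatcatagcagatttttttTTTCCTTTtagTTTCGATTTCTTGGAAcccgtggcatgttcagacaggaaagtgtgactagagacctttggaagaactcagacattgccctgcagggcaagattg
Motifs were searched on both strands. They were the interferon-stimulated response element (ISRE, here GAAA, any 2 bases, then GAAA), AANNGAAA (the shorter core of interferon regulatory factors, which every ISRE match also contains) and TTCNNNGAA (the STAT-type GAS element). In the Dtx3l window the core matched once, at the last 8 bases, downstream of both the RefSeq and the GENCODE start of Dtx3l. In the Parp11 window the ISRE matched on the minus strand, followed directly by an overlapping GAS match, and the core matched at 4 places. The table held 8 windows from 7 of the 10 genes, Parp1, Parp2, Parp3, Parp8, Parp11 (2 windows), Parp12 and Dtx3l. Among these 8, 1 window held the ISRE, 3 the core (Parp2 as well) and 1 the GAS, against 3.44%, 23.9% and 8.3% of all 32851 windows. A match of letters is no evidence of binding, and these windows hold only the bases next to a start.

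The Dtx3l to Parp9 ratio of CPM was not constant. It was 1.55, 1.53, 1.81 and 1.70 in the control libraries (replicates 2, 5, 6 and 7, in that order) and 1.26, 1.22, 1.28 and 1.18 in the MAARS gapmeR libraries (replicates 9, 11, 13 and 15), without overlap between the groups. The Parp14 to Dtx3l ratio varied less, from 2.57 to 2.75 in control and from 2.47 to 2.53 in MAARS gapmeR libraries, again without overlap. These pairs were singled out after the values had been seen, and no test was made of them. Parp14 lies 54966 bases from Dtx3l, and the stretch from Parp14 to the end of Parp9 spans 139732 bases. The 3 nearest tested genes towards each side did not pass 0.05: Hspbap1, Dirc2 and Pdia5 before it had log2 fold changes of 0.11, 0.16 and 0.20 (edgeR adjusted p = 0.489, 0.0634 and 0.421). On the other side, Gm15564, whose annotated body overlaps the end of Parp9 on the opposite strand, and Kpna1 and Wdr5b beyond Parp9 had -0.21, 0.04 and 0.18 (edgeR adjusted p = 0.372, 0.516 and 0.485). Dirc2 passed 0.05 as higher in 3 of 13 alternative fits. Group means of Gm15564, Pdia5, Hspbap1 and Wdr5b were only 1.53 to 5.97 CPM, with standard errors of 0.12 to 0.20, so small changes could be missed. Those of Dirc2 and Kpna1 were 47.7 to 95.3 CPM.

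**Figure D2:**
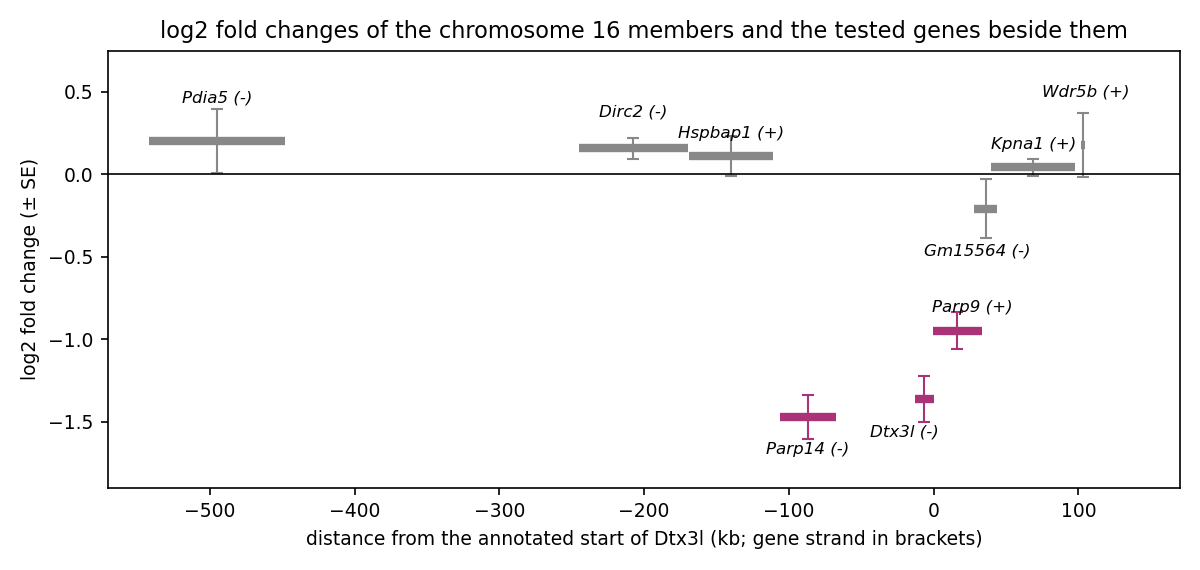
log2 fold change (MAARS gapmeR against control gapmeR, ± standard error) of the 3 chromosome 16 members and the 6 nearest tested genes, each drawn as a bar over its gene body, by distance in kb from the annotated start of Dtx3l. Parp14, Dtx3l and Parp9 lie between -1.47 and -0.95, and the neighbours between -0.21 and 0.20.

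Parp12, Parp10 and Parp11 encode mono-ADP-ribosyltransferases outside this stretch. Parp12 (ENSMUSG00000038507, chromosome 6 from 39086410 to 39118349), a zinc-finger protein known for antiviral activity, had 188, 215, 247 and 219 CPM in the control libraries (replicates 2, 5, 6 and 7, in that order) and 68.7, 92.1, 98.8 and 79.2 CPM in the MAARS gapmeR libraries (replicates 9, 11, 13 and 15). The lowest control library was thus well above the highest MAARS gapmeR library, and the log2 fold change was -1.36 ± 0.11 (SE; edgeR adjusted p = 6.49e-06), the smallest adjusted p of the 10 genes. Parp10 (ENSMUSG00000063268, chromosome 15 from 76231174 to 76243441) had 72.0, 83.8, 99.0 and 95.5 CPM in the control and 28.1, 38.7, 43.0 and 37.8 CPM in the MAARS gapmeR libraries. It fell to 42.2% of the control level, a log2 fold change of -1.24 ± 0.126 (SE; edgeR adjusted p = 1.94e-05), and Plec, on the same strand, overlaps 4.8% of its exonic bases. Parp11 (ENSMUSG00000037997, chromosome 6 from 127446840 to 127494261), linked to the nuclear envelope, had the lowest mean CPM of the 6 in both groups. Its values were 39.3, 49.6, 58.8 and 49.9 CPM in the control and 22.1, 28.2, 27.4 and 21.8 CPM in the MAARS gapmeR libraries, a log2 fold change of -0.99 ± 0.121 (SE; edgeR adjusted p = 7.3e-05).

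Within each group the same libraries were low or high. Control replicate 2 was the lowest and control replicate 6 the highest of the control libraries for 6 of the 6 interferon-type members. With MAARS gapmeR, replicate 13 was the highest for 5 of the 6 (replicate 11 for Parp11), and replicates 9 and 15 were each the lowest for 3. The 6 genes share these libraries and are not independent of each other. Without any single library their log2 fold changes stayed between -1.61 (Parp14) and -0.87 (Parp9), all with an adjusted p under 0.05 from edgeR.

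Parp1 (ENSMUSG00000026496, chromosome 1 from 180568924 to 180601254), the main sensor of DNA breaks in the family, moved the other way. It had 126, 124, 115 and 112 CPM in the control libraries (replicates 2, 5, 6 and 7, in that order) and 139, 147, 146 and 132 CPM in the MAARS gapmeR libraries (replicates 9, 11, 13 and 15). The gap between the groups was narrow, since the lowest MAARS gapmeR library exceeded the highest control library by only a few CPM, and the log2 fold change was 0.24 ± 0.0537 (SE; edgeR adjusted p = 0.00396). Parp2 (ENSMUSG00000036023, chromosome 14 from 50807841 to 50821301), its closest relative in function, had 39.8, 42.1, 39.9 and 40.9 CPM in the control and 33.5, 33.1, 37.9 and 34.4 CPM in the MAARS gapmeR libraries. Parp2 was thus slightly lower, by 0.23 on the log2 scale (log2 fold change -0.23 ± 0.0559, SE; edgeR adjusted p = 0.00618). Cell cycle genes were examined beside these DNA-break enzymes: 6 of 14 were higher (Mki67, Top2a, Ccna2, Ccnb1, Cdk1 and Rrm2, by 0.65 to 1.01 on the log2 scale) and none was lower at an adjusted p under 0.05 from edgeR, while Pcna, Tyms and the 6 Mcm genes did not pass. Of all genes tested, 21.3% were higher and 24.0% lower. The sum of the 14 cell cycle genes was 838 to 1292 CPM in control and 1078 to 1457 CPM in MAARS gapmeR libraries. Its part in the change of Parp1 was not tested.

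Parp3 and Parp8 split in the same way. Parp3 (ENSMUSG00000023249, chromosome 9 from 106470322 to 106476949), a mono-ADP-ribosyltransferase that also acts at DNA breaks, had 30.5, 29.0, 30.4 and 30.7 CPM in the control and 24.1, 26.5, 27.4 and 27.0 CPM in the MAARS gapmeR libraries. Its log2 fold change of -0.20 ± 0.0577 (SE; edgeR adjusted p = 0.0147) was the smallest in size of the 10, and when upper-quartile factors replaced TMM the edgeR adjusted p was 0.0755. Parp8 (ENSMUSG00000021725, chromosome 13 from 116854820 to 117025537), a member of which little is known, had the lowest CPM of the 10 genes with control gapmeR, with 14.6, 18.4, 22.4 and 17.4 CPM in the control and 26.2, 23.1, 23.8 and 24.4 CPM in the MAARS gapmeR libraries. Control replicate 6 came close to the MAARS gapmeR libraries, and the log2 fold change was 0.42 ± 0.109 (SE; edgeR adjusted p = 0.00839). For each of the 10 genes the two-sided exact permutation test over the 70 assignments of 4 and 4 libraries gave p = 0.0286, the smallest p that this design allows. Any gene whose groups do not overlap gives this p, so the test adds nothing to the lack of overlap given above. The groups did not overlap in 22.8% (lower) and 19.3% (higher) of all genes tested.

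**Figure D3:**
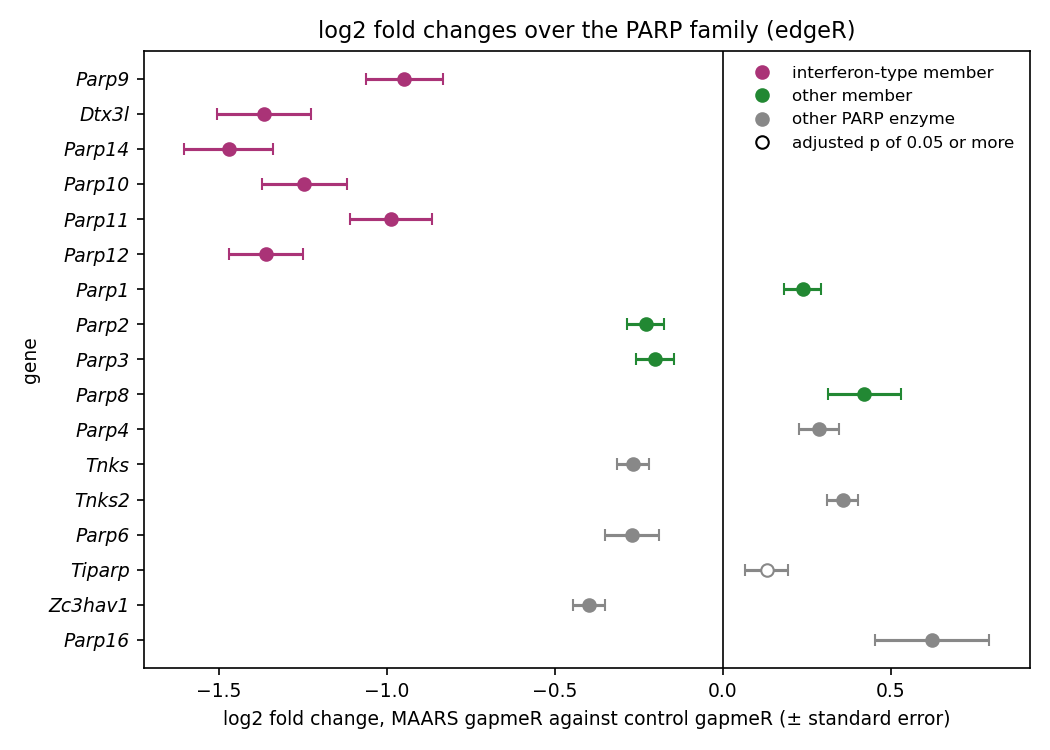
log2 fold change of the 10 genes and of the 7 other PARP enzymes (MAARS gapmeR against control gapmeR, edgeR, bars ± standard error), with open points for an adjusted p of 0.05 or more. The interferon-type members lie between -1.47 and -0.95, and the 11 other genes between -0.40 and 0.62. The lowest of the 11, Zc3hav1, is interferon-inducible too but was not placed among the interferon-type members.

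To compare the members with Parp1 and Parp2 directly, the log2 ratio of each gene to Parp1, and to Parp2, was taken within each library and compared between the groups with limma over all genes tested. The CPM ratio of Parp14 to Parp1 was 4.62 to 6.75 in control and 1.49 to 2.15 in MAARS gapmeR libraries. All 6 fell relative to Parp1, by 1.20 (Parp9) to 1.72 (Parp14) on the log2 scale, with adjusted p between 1.37e-07 and 3.34e-06 from limma. Since Parp1 itself rose, 46.8% of all genes were lower relative to Parp1 and 7.52% were higher, so a fall relative to Parp1 was a frequent result. Against Parp2 a fall was rarer, as 7.99% of genes were lower and 45.0% higher relative to it. The Parp14 to Parp2 ratio was 14.7 to 19.5 in control and 5.99 to 8.28 in MAARS gapmeR libraries. All 6 interferon-type members fell relative to Parp2 too, by 0.73 (Parp9) to 1.25 (Parp14) on the log2 scale, with adjusted p between 6.86e-08 and 3.89e-05 from limma. For Parp14 the 95% interval of this change was -1.48 to -1.03, and for Parp9 it was -0.93 to -0.53.

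Parp1 and Parp2 also differed from each other. The Parp2 to Parp1 ratio was 0.315 to 0.363 in control and 0.225 to 0.260 in MAARS gapmeR libraries, a change of -0.47 on the log2 scale (95% interval -0.64 to -0.30, limma adjusted p = 0.000208). Parp3 fell relative to Parp1 by 0.44 (log2 ratio change -0.44, limma adjusted p = 0.00059), and its change relative to Parp2 was 0.03, with a 95% interval of -0.14 to 0.20 (limma adjusted p = 0.789). Parp8 rose relative to Parp2 by 0.66 (95% interval 0.42 to 0.91, limma adjusted p = 0.00015). Relative to Parp1 its change was 0.20, with a 95% interval of -0.09 to 0.48 (limma adjusted p = 0.226). This last value rested partly on control replicate 6, without which it was 0.32 (limma adjusted p = 0.0395).

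**Figure D4:**
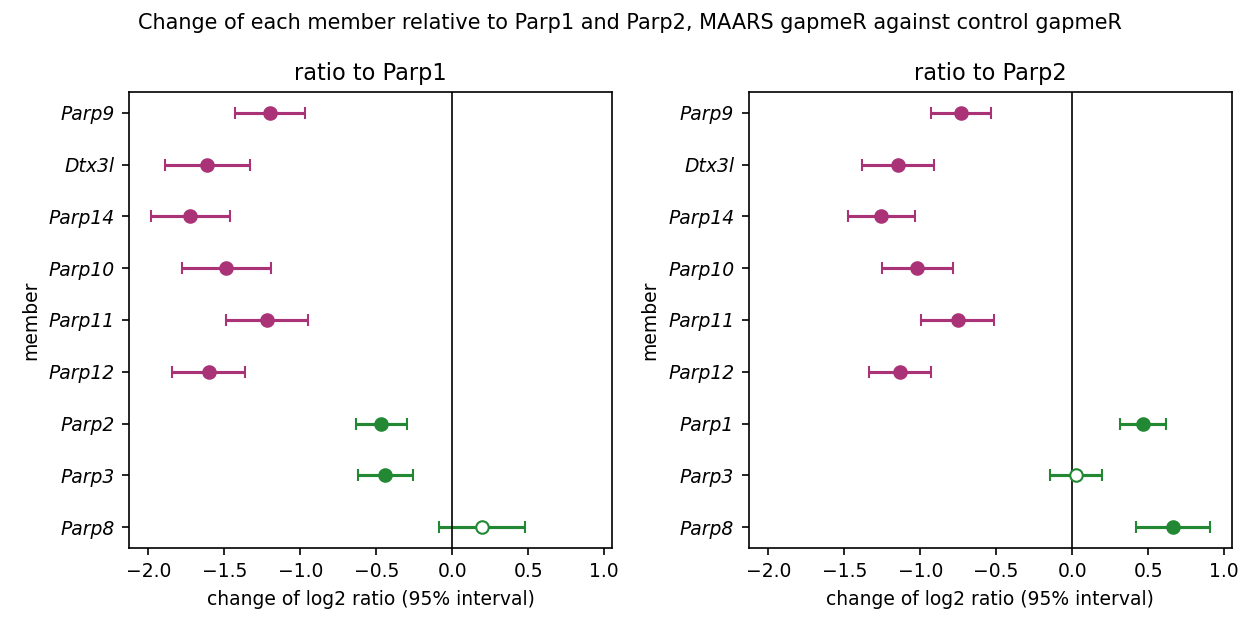
Change of the log2 ratio of each member to Parp1 (left) and to Parp2 (right), MAARS gapmeR against control gapmeR, with 95% intervals from limma; interferon-type members are in purple, the others in green, and points with an adjusted p of 0.05 or more are open. All 6 interferon-type members lie below 0 on both sides, by 0.73 to 1.72.

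Per kb of exon, a scale on which genes can be compared, Parp14 was the highest of the 10 genes with control gapmeR, at 73.4 ± 8.63 CPM per kb (± SD, 4 libraries). It was followed by Parp12 (54.4), Dtx3l (44.6), Parp9 (31.7), Parp1 (22.6), Parp10 (20.5), Parp2 (11.2), Parp3 (8.15), Parp11 (7.03) and Parp8 (2.05). Of these neighbours, the library ranges of Parp12 and Dtx3l, of Parp1 and Parp10, and of Parp3 and Parp11 overlapped. With MAARS gapmeR the order changed, and Parp1 (26.7 ± 1.32 CPM per kb, SD of 4 libraries) stood beside Parp14 (26.5 ± 5.48 CPM per kb, SD of 4 libraries), with overlapping ranges. Parp12 (21.2), Dtx3l (17.3) and Parp9 (16.4) came next, each overlapping its neighbour, and then Parp2 (9.57), Parp10 (8.64), Parp3 (7.09), Parp11 (3.54) and Parp8 (2.74). On this scale Parp10, which lay above Parp2 with control gapmeR, thus overlapped with it after knockdown. Using the longest annotated transcript in place of all exons, Parp9 came before Dtx3l and Parp8 before Parp11 with MAARS gapmeR, and Parp11 before Parp3 with control gapmeR. By this length Parp10 lay wholly below Parp2 with MAARS gapmeR (8.26 to 12.6 against 15.2 to 17.4 CPM per kb). With control gapmeR the ranges of Parp12 and Dtx3l, and of Parp3 and Parp11, no longer overlapped, whereas those of Dtx3l and Parp9 did.

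The 6 interferon-type members made up 81.5% to 85.9% of the summed level per kb of the 10 genes in control libraries and 63.3% to 70.5% in MAARS gapmeR libraries. The share of Parp1 was 7.08% to 9.86% in control and 16.9% to 21.4% in MAARS gapmeR libraries.

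**Figure D5:**
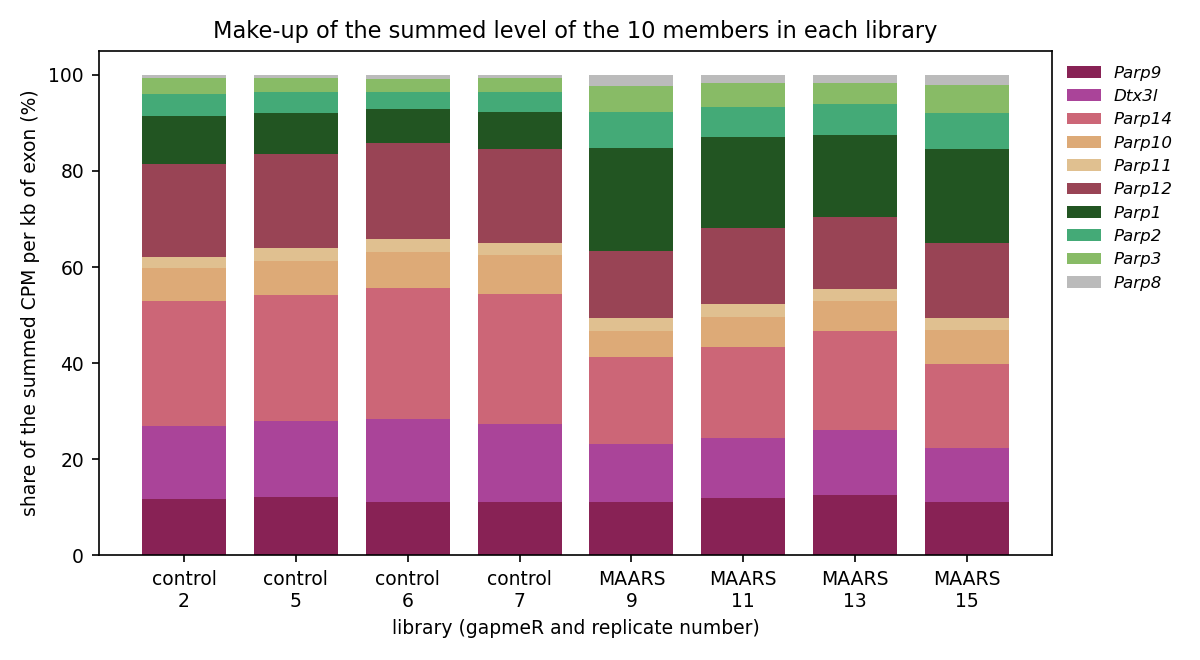
Share of each of the 10 genes in their summed CPM per kb of exon (%), with 1 stacked bar per library. The purple, red and tan interferon-type part is 81.5% to 85.9% high in the control libraries and 63.3% to 70.5% in the MAARS gapmeR libraries, where the dark green Parp1 part is wider.

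The genes with values most like those of a member were found by the root mean square difference of mean-centred log2 CPM over the 8 libraries, among 13050 genes. The values were not scaled, so this distance includes any difference in the size of the change between the groups. It does not measure the pattern within a group alone. Parp14 was the nearest gene to Dtx3l (0.0614), ahead of Ifih1 (0.0689) and Gm49342 (0.0822), and Dtx3l was the third nearest to Parp14, after Ifi203 (0.0537) and Irgm2 (0.0571). Members on other chromosomes were also near: Parp12 was at place 5 for Dtx3l (0.0909) and at place 11 for Parp14 (0.0976). Parp10 was at place 44 for Dtx3l (0.154) and Parp11 at place 117 (0.221). Parp9, with a log2 fold change of -0.95 against -1.36 for Dtx3l, was the 114th nearest to Dtx3l (0.221). Its own nearest genes were Sp100 (0.0444), Eif2ak2 (0.0683) and Sdc3 (0.0791), and the nearest member was Parp11, at place 18. Atxn10, Zhx3 and Uhrf1bp1l were nearest to Parp1 (0.0290 to 0.0322), and Sde2, Cyb561a3 and Psma3 to Parp2 (0.0287 to 0.0387). Parp3 was at place 176 in the order of likeness to Parp2 and Parp1 at place 7469.

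The 7 other PARP enzymes tested moved in both directions, with 3 lower, 3 higher and 1 not passing 0.05, and with a median log2 fold change of 0.13 (0.01 over all genes tested). Among all genes tested, 24.0% were lower and 21.3% higher. Zc3hav1, the zinc-finger antiviral protein also named PARP13, which lacks catalytic activity and is itself interferon-inducible, fell from 287 ± 11.9 to 218 ± 9.87 CPM (± SD, 4 libraries a group), a log2 fold change of -0.40 ± 0.0486 (SE; edgeR adjusted p = 7.18e-05). The tankyrases, which attach ADP-ribose chains to telomere and Wnt pathway proteins, diverged: Tnks had a log2 fold change of -0.27 and Tnks2 of 0.36 (edgeR adjusted p = 0.000917 and 0.000121). Parp4, of the vault particle, and Parp16, of the endoplasmic reticulum, had log2 fold changes of 0.29 and 0.62 (edgeR adjusted p = 0.00244 and 0.0111), the latter at only 2.23 and 3.43 CPM. Parp6 had -0.27 (edgeR adjusted p = 0.0181), a call lost in 2 of 13 alternative fits, and Tiparp, a target of the aryl hydrocarbon receptor, had 0.13 (edgeR adjusted p = 0.12).

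Genes that remove or guide ADP-ribosylation were also mixed. Of 10 listed, 8 were tested, with 3 higher, 2 lower and 3 not passing, and a median log2 fold change of 0.02. By comparison, 21.3% of all genes tested were higher and 24.0% lower. Macrod1, a macrodomain hydrolase, rose from 7.84 ± 1.66 to 17.3 ± 1.43 CPM (± SD, 4 libraries a group), a log2 fold change of 1.14 ± 0.131 (SE; edgeR adjusted p = 4.59e-05). Nudt16 and Parg, which encodes the main hydrolase of ADP-ribose chains, had log2 fold changes of 0.30 and 0.24, and the call of Parg was lost in 3 of 13 alternative fits. Oard1 and Nudt9 had -0.25 and -0.31. Hpf1, the cofactor that directs PARP1 and PARP2 to serine, had 35.4 ± 2.61 and 36.7 ± 2.03 CPM (± SD, 4 libraries a group; edgeR adjusted p = 0.542).

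Of 11 readers and strand-break repair genes, 5 were lower and 1 higher (24.0% and 21.3% of all genes tested), with a median log2 fold change of -0.15. Polb, the DNA polymerase of base excision repair, fell from 35.6 ± 3.55 to 20.7 ± 1.24 CPM (± SD, 4 libraries a group), a log2 fold change of -0.78 ± 0.0786 (SE; edgeR adjusted p = 1.88e-05). Xrcc1, the scaffold recruited by ADP-ribose chains, had -0.36, Aptx -0.29 and Chd1l -0.28. H2afy, which encodes the macrodomain histone macroH2A1, rose by 0.60 ± 0.0486 (SE; edgeR adjusted p = 6.49e-06). Lig3, Fen1, Tdp1, Aplf and Rnf146 did not pass 0.05.

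NAD+ is the substrate of every active PARP, and of 13 NAD genes tested 6 were lower and 3 higher, with a median log2 fold change of -0.05. Over all genes tested the shares were 24.0% lower and 21.3% higher. Nampt, the rate-limiting enzyme of NAD+ salvage, fell from 287 ± 14.1 to 174 ± 13.8 CPM (± SD, 4 libraries a group), a log2 fold change of -0.72 ± 0.0611 (SE; edgeR adjusted p = 7.67e-06). The NAD+ consuming ectoenzymes Bst1 and Cd38 had -0.76 and -1.16, the latter at 1.70 and 0.756 CPM, and Nadk, which makes NADP+, had -0.27. Nmnat3, a synthesis enzyme, had 0.58 (edgeR adjusted p = 0.000736). The remaining calls, of Nmnat1 and Sirt1 (-0.28 and -0.19) and of Nmrk1 and Sirt2 (0.18 and 0.15), were each lost in 3 to 9 of 13 alternative fits.

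Among the other Deltex ligases, Dtx3 and Dtx4 rose, with log2 fold changes of 0.53 and 0.57 (edgeR adjusted p = 0.00168 and 1.4e-05), in the opposite direction to Dtx3l. Dtx2 did not pass 0.05, and Dtx1 had too few counts to be tested. None of the ecto-ADP-ribosyltransferases Art1, Art2b, Art3, Art4 and Art5 passed the filter on low counts, and Art2a was not analysed here.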

How the data were processed

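The deposited values are raw counts per Ensembl gene, made by the authors with Trimmomatic 0.36, STAR 2.5.2b (mouse genome, Ensembl transcripts) and featureCounts (Subread 1.5.2), per the labels and the study's methods, and not normalized. The strand and multimapping settings are not given in the sources used here. Groups came from the sample labels, and nothing says whether the 4 libraries of a group came from separate mice. The p-values therefore set the difference between groups against the spread between these libraries, and may not speak for differences between mice. Libraries of the same group differed by a chi-square of 4.02 to 14.1 per gene, and none was a copy of another.

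Counts were analysed with R 4.3.3, edgeR 4.0.16, limma 3.58.1 and DESeq2 1.42.0. Genes passing filterByExpr (minimum count 10, minimum total 15), 13051 of 49315, were scaled by TMM and compared with glmQLFit and glmQLFTest, with Benjamini-Hochberg adjustment over all genes tested. Standard errors are the absolute log2 fold change over the square root of F. The ratio tests used limma with a mean-variance trend on log2 CPM (prior count 2) minus that of Parp1 or Parp2 in the same library. Positions and lengths are from GENCODE M21, and promoter windows from RefSeq on GRCm38.p6. Named genes are the members, MAARS, context lists, the nearest tested genes and the genes most alike. Members and lists were chosen with earlier results of these data known. The code was tested on simulated data.

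The alternatives were RLE and upper-quartile factors, DESeq2, limma-voom, no filter on low counts, each library left out in turn, and, for the ratios, a prior count of 0.5 and limma without trend. Some results of the context lists are not reported here.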

Additional observations from a re-analysis of the deposited data

Results flagged for a closer look

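In 3 groups of 4 libraries, 1 library lay far from the other 3, with a gap past Dixon's 95% critical value for 4 samples. Parp3 had 29.0 CPM in control replicate 5 against 30.4 to 30.7 CPM in the other control libraries. Hpf1 had 31.5 CPM in control replicate 6 against 36.2 to 37.0 CPM. Dtx2 had 17.5 CPM in MAARS gapmeR replicate 15 against 14.3 to 14.8 CPM in the other MAARS gapmeR libraries. The search covered 78 genes in both groups, and chance flags about 1 group in 20.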

How the results depend on the processing

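Of 328 values of the 10 genes under the alternatives (13 for each log2 fold change and 11 for each ratio), 326 kept their direction and their side of the 0.05 threshold, and no value of these or of the 68 context genes reversed as a called result. With upper-quartile factors the log2 fold change of Parp3 was -0.14 (adjusted p = 0.0755 from edgeR). The ratio of Parp8 to Parp1 changed by 0.069 to 0.32 when single libraries were left out, and passed 0.05 without control replicate 6. Upper-quartile factors moved the share of higher genes among all calls from 47.0% to 60.4%. Of the 68 context genes, 16 changed their call in at least 1 alternative. No paired analysis was possible because the groups share no replicate number. Genes under about 10 counts per library were not tested, and the counts give no view of protein or ADP-ribosylation.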
